A study of Saccharomyces cerevisiae with 8 samples.

Results

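The 10 genes described here make haploid budding yeast (Saccharomyces cerevisiae) mate: the a-factor genes MFA1 (YDR461W) and MFA2 (YNL145W), the a-factor exporter gene STE6 (YKL209C), the a-agglutinin subunit gene AGA2 (YGL032C), the alpha-factor genes MF(ALPHA)1 (YPL187W) and MF(ALPHA)2 (YGL089C), the a-factor receptor gene STE3 (YKL178C), the alpha-agglutinin gene SAG1 (YJR004C), and AGA1 (YNR044W) and FAR1 (YJL157C), which both mating types use. They were chosen as the features of a spotted yeast array whose annotation gives one of these symbols alone. That rule found 11 of 6912 features, because STE3 has 2, and all 10 genes among the 3127 genes with a name of their own. Gene expression was measured in cells lacking YAP1 (yap1d) against wild type (WT), in the strains BY4741, of mating type a, and BY4742, of mating type alpha. Every culture, WT included, grew in the rich medium YPD to an optical density of 0.5 and then spent 2 h in 200 mM hydroxyurea, which blocks ribonucleotide reductase and so slows DNA synthesis. Drug-free cultures are not analysed here, and what hydroxyurea itself did is not addressed. Each strain had 2 slides, and on each slide yap1d and WT RNA of that strain were hybridised together. The labels name 1 yap1d strain in each background and do not say whether the 2 slides came from separate cultures. The spread between slides may therefore be technical. No strain had 2 slides with yap1d in the same channel. The p-values thus rest on how slides differ across strains and on a spread shared over all genes.

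A haploid yeast cell has one of the mating types, a or alpha. Cells of type a make a-factor, a short peptide carrying a lipid, and sense alpha-factor. Cells of type alpha make alpha-factor, an unmodified peptide cut from a longer precursor, and sense a-factor. The a-specific genes are silenced in alpha cells by the repressor alpha2 together with Mcm1, and the alpha-specific genes need the activator alpha1 together with Mcm1. Pheromone bound to its receptor starts a G protein and a MAP kinase cascade that activates the transcription factor Ste12 and arrests the cell cycle in G1 through Far1.

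The files give, for each feature of a slide, a log ratio of channels without intensities, so a feature's signal above background is not known here. Base 2 is assumed for the logarithm, since no label names it. Values below were centred on the median of each column, and the 2 columns of a slide, titled fort and faible and treated as its 2 scans, were averaged. RNA of yap1d was in channel 1 on slides 19 (BY4741) and 21 (BY4742) and in channel 2 on slides 20 (BY4741) and 22 (BY4742). An effect of yap1d therefore moves the ratio in opposite directions on the 2 slides of a strain, and a channel effect of the feature moves it in the same direction on both. The sign is only likely, because no source used here names the channel on top. The Yap1 targets TRX2 and TRR1, whose values were known by then, set it. TRX2, which encodes a thioredoxin, stood at -1.44, 2.25, -0.83 and 1.745 on slides 19 to 22, and TRR1, its reductase, at -0.51, 1.49, -0.4975 and 1.495. If the sign is wrong, every effect of yap1d turns, while the ratios of single slides stay in the direction deposited. Over all features, slides of the same orientation correlated at 0.847 and 0.858, slides of opposite orientation at 0.760 to 0.810, and the 2 scans of a slide at 0.953 to 0.972. The number of arrays limits the precision.

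**Figure D1:**
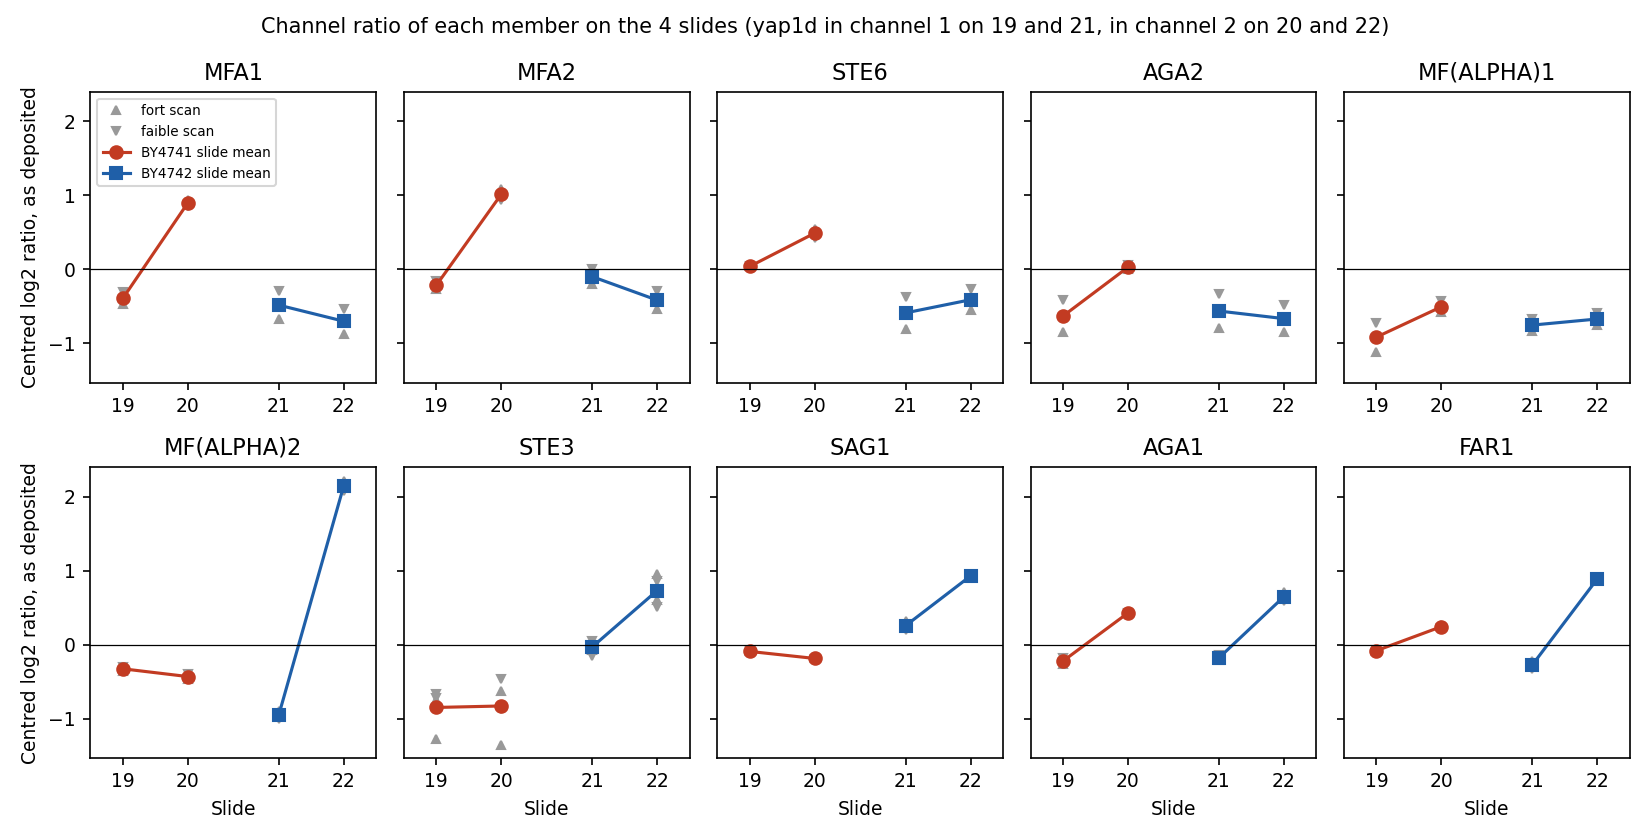
Centred log2 ratio of the 10 genes on slides 19 and 20 (BY4741, red) and 21 and 22 (BY4742, blue), in the direction deposited, with grey triangles for the single scans (2 features for STE3). A line that slopes holds an effect of yap1d, and MF(ALPHA)2 in BY4742 has the steepest, from -0.95 to 2.15. A line that lies higher in one strain holds a channel ratio that differs between strains, as for STE3 and STE6.

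The first comparison asked whether the features of mating-type genes tell the 2 strains apart. The mean of the 2 slides of a strain, called the channel ratio here, holds no effect of yap1d if that effect is equal on both slides. That cannot be checked with 1 slide of each orientation in a strain. It is no amount of RNA, because the strains were never hybridised together, but it shows a feature that behaves differently in the 2 strains. Mating-type genes were at both ends of that difference: of 3127 genes, MFA1, STE6 and MFA2 had the 3 most negative values of BY4742 minus BY4741, and STE3, MF(ALPHA)2 and SAG1 ranked 1, 3 and 5 among the most positive. A difference of at least 0.5 was reached by 6 of the 10 members, against 41 of all genes (1.31%), and each of the 6 was higher in the strain whose mating type uses the gene. The size of 0.5 was chosen after the values were seen. With limma, 4 genes (0.128%) passed an adjusted p of 0.05, and they were STE3, MF(ALPHA)2, MET17 and AFB1.

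STE3, the receptor by which alpha cells sense a-factor, had ratios of -0.85 and -0.83 in BY4741 (slides 19 and 20) against -0.03 and 0.73 in BY4742 (slides 21 and 22). The strains did not overlap, and the difference was 1.19 ± 0.216 (SE, 4 slides; limma adjusted p = 9.22e-05). Its 2 features gave the same order, with one at -0.62 in BY4741 and 0.48 in BY4742 and the other at -1.05 and 0.22. SAG1, the alpha-agglutinin by which alpha cells stick to a cells, was at -0.09 and -0.185 in BY4741 and higher, at 0.26 and 0.93, in BY4742, again with no overlap (difference 0.73, limma adjusted p = 0.288). Both BY4742 slides lay above both BY4741 slides in 11.5% of all genes. MF(ALPHA)2, the lesser alpha-factor gene, had -0.325 and -0.43 in BY4741 against -0.95 and 2.15 in BY4742, so its slides overlap. Its difference was 0.98 ± 0.216 (limma adjusted p = 0.00598). That SE is common to all genes and leaves out the wide spread of the gene's own BY4742 slides. MF(ALPHA)1, the main source of alpha-factor, was the exception. It stood at -0.915 and -0.505 in BY4741 against -0.75 and -0.67 in BY4742. Its channel ratio was -0.71 in both strains (difference -0.00125, limma adjusted p = 0.996).

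Among the a-specific genes, STE6, the ABC transporter that exports a-factor, had 0.04 and 0.49 in BY4741 against -0.59 and -0.41 in BY4742. The strains did not overlap (difference -0.76, limma adjusted p = 0.201). MFA1, one of the genes for the a-factor precursor, had -0.39 and 0.90 in BY4741 against -0.48 and -0.70 in BY4742 (difference -0.85, limma adjusted p = 0.0569). The slides of MFA1 did not overlap between strains either, but slide 19 lay just above slide 21. Both BY4741 slides lay above both BY4742 slides in 11.7% of all genes. MFA2, which encodes a nearly identical a-factor, had -0.215 and 1.015 in BY4741 against -0.098 and -0.415 in BY4742, so slide 20 stood alone and the strains overlap (difference -0.66, limma adjusted p = 0.584). AGA2, the subunit of a-agglutinin that binds alpha-agglutinin, was at -0.63 and 0.03 against -0.56 and -0.67 (difference -0.31, limma adjusted p = 0.996). The genes that both mating types use differed less, by 0.13 for AGA1 and 0.23 for FAR1 (both with a limma adjusted p of 0.996).

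**Figure D2:**
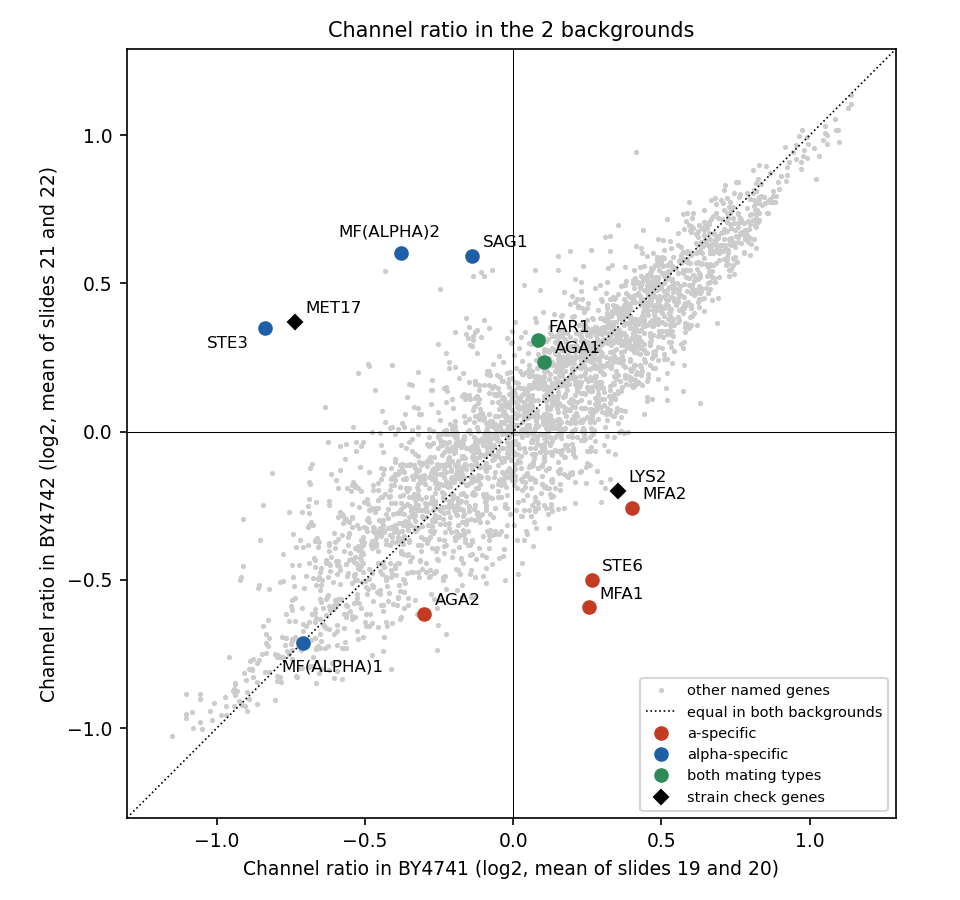
Channel ratio (log2, mean of the 2 slides of a strain) in BY4741 on the x axis and BY4742 on the y axis for 3127 genes (grey), the a-specific (red), alpha-specific (blue) and shared (green) members, and MET17 and LYS2 (black). Most genes follow the dotted line of equality, the alpha-specific genes STE3, MF(ALPHA)2 and SAG1 lie above the cloud with MET17, the a-specific genes MFA1, MFA2 and STE6 lie below it with LYS2, and MF(ALPHA)1 lies on the line at -0.71.

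Auxotrophy genes known to differ between these strains were read the same way. By their general genotype, BY4741 lacks MET17 (also called MET15, for sulphur assimilation) and BY4742 lacks LYS2 (for lysine synthesis). MET17 had channel ratios of -0.735 in BY4741 and 0.37 in BY4742 (difference 1.11 ± 0.216, limma adjusted p = 0.000369), and LYS2 had 0.355 and -0.20 (difference -0.55, limma adjusted p = 0.996). In each case the strain lacking the gene had the lower ratio. By sign alone, the mating type that does not use the gene had the lower ratio for 7 of the 8 type-specific members. AGA2, with a difference of only -0.31, is among them, and the count was 5 without slide 20 or slide 22. Over all genes the signs were about equally common, as MF(ALPHA)1, at -0.00125, ranked 1562 from the lowest of 3127. Whether a low channel ratio marks a missing transcript was not tested. AFB1 (YLR040C), an alpha-specific gene whose product blocks a-factor, had 0.97 ± 0.216 (limma adjusted p = 0.00599) and is named after its values were seen. This fit had 1 residual degree of freedom, the difference in the effect of yap1d between strains, and gave every gene 1 common SD of 0.216. The calls also rest on the normalization: no gene passed after scaling columns to a common spread or after quantile normalization (64 and 74 genes with an unadjusted p under 0.05). The difference was then 1.10 and 1.15 for STE3 and 0.76 and 0.755 for MF(ALPHA)2. With robust moderation MF(ALPHA)2 was lost (adjusted p = 0.996) and STE3 was kept. When the median of each print block was also removed, which was chosen with the values known, 8 genes passed: STE3, MET17, MF(ALPHA)2, SAG1, STE6, AFB1, MFA2 and MFA1, with LYS2 and AGA2 next in order of p.

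The strains differed most on the slides that carry WT RNA in channel 1. Between slides 20 and 22, the value for BY4742 minus BY4741 was -1.60 for MFA1 and -1.43 for MFA2, the 2 lowest of 3127 genes, and 2.58 for MF(ALPHA)2, the highest. STE3 (1.56), SAG1 (1.11), STE6 (-0.90), AGA2 (-0.695) and FAR1 (0.645) followed, so 8 of the 10 members differed by at least 0.5, against 10.2% of all genes. Between slides 19 and 21, with yap1d RNA in channel 1, 3 members differed by at least 0.5, against 5.66% of all genes. STE3 (0.82) and STE6 (-0.63) kept their order there, and MF(ALPHA)2 turned to -0.62, with the lower value in BY4742. The same difference was small for MFA1 (-0.09), MFA2 (0.12) and AGA2 (0.07). The difference in channel ratio between strains is the mean of these 2 values of a gene. The difference in the effect of yap1d is formed from the same values. For a gene that differs mainly in 1 orientation, the 2 results are therefore not separate.

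The second comparison asked what the loss of YAP1 did to these genes in each strain. It takes the difference between the slides of a strain divided by 2, so that a channel effect of the feature cancels. The residual of the fit with an effect per strain is the difference in channel ratio between strains, so the SE holds that difference. In RNA of whole cultures, fewer cells expressing a gene and less RNA per cell cannot be told apart, and the share of cells arrested in G1 was not measured. In BY4742, MF(ALPHA)2 fell 2.93-fold (log2 -1.55 ± 0.255, SE; limma adjusted p = 0.0264) and FAR1 fell by a smaller amount (log2 -0.58 ± 0.107; adjusted p = 0.0427). These 2 of 10 members stand beside 45 of all 3127 genes that passed in BY4742 (1.44%), 39 of them lower (1.25%). In BY4741 none of the 10 passed, against 41 of all genes (1.31%), although 4 had an unadjusted p under 0.05, as 15.4% of all genes did. Over both strains together no member passed, against 48 genes (1.54%), and 3 had an unadjusted p under 0.05, against 10.3% of all genes. The mean over both strains was below 0 for all 10 members, against 54.4% of all genes, and the median of the members was -0.21 against -0.01. That count changed with the slide left out. Without slide 20, 6 of the 10 means were below 0, and MFA1 (0.13), MFA2 (0.13), STE6 (0.07) and AGA2 (0.03) were above. The count was 8 without slide 22, where STE3 (0.19) and SAG1 (0.13) were above 0, and 9 without slide 19 or 21. The sizes changed as well. Without slide 20 the mean was -1.39 for MF(ALPHA)2, -0.59 for STE3, -0.53 for FAR1, and -0.42 for AGA1 and for SAG1. Without slide 22 it was -0.67 for MFA1, -0.59 for MFA2 and -0.38 for STE6. With 3 slides, 1 strain has a single slide. A difference between strains in channel ratio then enters the mean and cannot be told apart from an effect of yap1d. Effects were below 0 in 8 members in BY4741 (52.2% of all genes), in 7 in BY4742 (50%) and in 5 in both strains (25.8%).

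**Figure D3:**
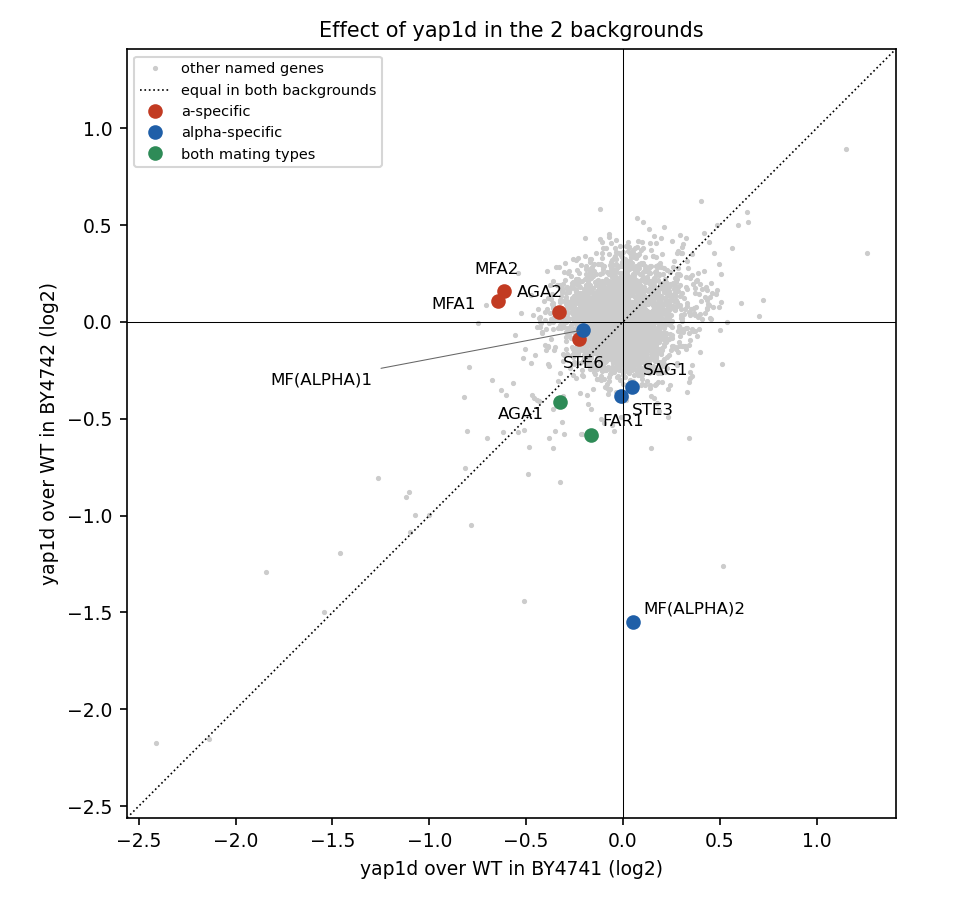
Effect of yap1d (log2 of yap1d over WT) in BY4741 on the x axis and BY4742 on the y axis for 3127 genes (grey) and the members. MFA1, MFA2 and AGA2 lie to the left with values near 0 in BY4742, MF(ALPHA)2, STE3 and SAG1 lie below with values near 0 in BY4741, and AGA1 and FAR1 are below 0 in both.

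The a-specific members had their lower values in the a strain. MFA1 was at -0.65 in BY4741 and 0.11 in BY4742 (SE 0.225 each; limma adjusted p = 0.253 and 0.839), and MFA2 at -0.615 and 0.16 (SE 0.184 each; 0.176 and 0.689). These were the 21st and 24th lowest of 3127 genes in BY4741. AGA2 was at -0.33 in BY4741 and 0.05 in BY4742, and STE6 at -0.225 and -0.09, with SEs of 0.119 and 0.207, and neither passed in either strain. The scans gave similar sizes, with MFA1 in BY4741 at -0.705 in the fort and -0.585 in the faible columns and MFA2 at -0.68 and -0.55. The calls differed. In the faible columns alone MFA1 (limma adjusted p = 9.01e-07), MFA2 (5.50e-06) and AGA1 (-0.305, 0.0474) passed in BY4741 among 177 of 3127 genes. With the values as deposited MFA1 (-0.61, 0.000437) and MFA2 (-0.58, 0.00112) passed among 91. Among the members, the p-values of these settings followed the size of the effect alone, so they leave out a gene's own spread. Without slide 20, the values in BY4741 were 0.20 for MFA1, 0.04 for MFA2, 0.54 for STE6 and -0.02 for AGA2. That fit takes the channel effect from the BY4742 slides, so a difference in channel ratio between strains enters these values. They cannot show whether the effects in BY4741 rest on slide 20. MFA1 and MFA2 encode almost the same peptide, so their features may share RNA, and the values of the pair are not independent. Euclidean distances over the 4 slides were taken after removing each gene's mean over those slides. A difference in channel ratio between strains stays in these distances, so they do not compare effects of yap1d alone. MFA2 was the nearest of all named genes to MFA1 (0.207), followed by YLR297W (0.325) and the RNA polymerase I subunit gene RPA34 (0.608). The nearest to MFA2 were YLR297W (0.204), MFA1 and UBX6 (0.452).

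The alpha-specific members had their lower values in the alpha strain, apart from MF(ALPHA)1. MF(ALPHA)2 was at 0.05 in BY4741 and -1.55 in BY4742, number 3 from the lowest of 3127 genes there. Its ratio was among the lowest of all features on slide 21 (percentile 0.209) and among the highest on slide 22 (percentile 99.96), and both scans gave the same effect in BY4742 (-1.56 and -1.54). STE3 was at -0.01 in BY4741 and -0.38 in BY4742 (SE 0.303 each; limma adjusted p = 0.569 in BY4742). Its 2 features were at -0.43 and -0.34 in BY4742 and on opposite sides of 0 in BY4741 (-0.08 and 0.06). SAG1 was at 0.05 and -0.34 (SE 0.200 each; limma adjusted p = 0.491 in BY4742). Without slide 22, STE3 was at 0.81 and SAG1 at 0.395 in BY4742, and without slide 21 they were at -1.57 and -1.07. Those fits take the channel effect from the BY4741 slides, so the difference in channel ratio between strains enters these values. They cannot show whether the effects of STE3 and SAG1 rest on 1 slide. MF(ALPHA)1 was at -0.205 in BY4741 and -0.04 in BY4742 (SE 0.0920 each) and did not pass in either. MF(ALPHA)1 and MF(ALPHA)2 encode similar precursors, so their features may share RNA too. By the same distance as for MFA1, the genes nearest to MF(ALPHA)2 were the phosphate transporter gene PHO89 (0.967), the cell wall mannoprotein gene FIT3 (1.21) and YKR075C (1.43).

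AGA1 and FAR1 had values below 0 in both strains. AGA1, the anchor that holds the agglutinin subunit Aga2 on the wall of a cells and is induced by pheromone in both types, was at -0.325 in BY4741 and -0.41 in BY4742 (SE 0.0973 each). Its ratio on slides 19 to 22 was -0.22, 0.43, -0.18 and 0.65, so it turned with the orientation in both strains. The mean was -0.37 (95% interval -0.54 to -0.19), with a limma adjusted p of 0.0634, which became 0.0356 when each strain had an effect of its own (1.95% of all genes passed) and 0.0390 when the 2 strain means were the replicates. In the latter fit MF(ALPHA)2 (1.21e-09) and FAR1 (0.0369) passed as well, so 3 members did, against 2.11% of all genes. The p-values of the members followed the size of the mean alone there, and leave out how far the strains differed. MF(ALPHA)2 passed although it was at 0.05 in BY4741 and -1.55 in BY4742. FAR1, which inhibits the G1 cyclin kinase Cdc28 during pheromone arrest and gives the cell its direction towards a partner, was at -0.16 in BY4741 and -0.58 in BY4742 (SE 0.107 each). Its ratio on slides 19 to 22 was -0.08, 0.245, -0.27 and 0.89, which also turned with the orientation. AGA1 and FAR1 were the only members below 0 on all 4 slides once turned to yap1d over WT, as 2.21% of all genes were.

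The calls in BY4742 depended on the processing. MF(ALPHA)2 stayed between -1.61 and -1.42 with all slides in the turned settings, but its adjusted p was 0.272 in the fort columns alone, 0.117 after scaling, 0.0757 after quantile normalization, 0.433 with robust moderation and 0.133 with print block medians removed, and without slide 22 its value was -0.57. FAR1 kept its size in the settings that lost its call, at -0.57 in the fort columns alone (adjusted p = 0.337), -0.58 after scaling (0.131), -0.60 after quantile normalization (0.0612) and -0.58 with robust moderation (0.0528), and was at -0.355 without slide 22. The values without slide 22 take the channel effect from the BY4741 slides, so a difference in channel ratio between strains enters them. Other settings gave smaller p-values. In the faible columns alone 5 members passed among 138 of 3127 genes: MF(ALPHA)2 (6.42e-49), FAR1 (5.48e-07), STE3 (-0.37, 0.00981), AGA1 (-0.37, 0.00981) and SAG1 (-0.36, 0.0131). With the values as deposited MF(ALPHA)2 (8.48e-26) and FAR1 (-0.51, 0.00863) passed among 114. In both settings the p-values of the members followed the size of the effect alone, so they leave out a gene's own spread. STE3 and AGA1 had the same adjusted p in the faible columns, although their differences in channel ratio between strains were 0.995 and 0.0975 there.

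A last comparison set the effect of yap1d in one strain against that in the other. The value for BY4742 minus BY4741 was -1.60 for MF(ALPHA)2 (95% interval -2.42 to -0.78), number 2 from the lowest of 3127 genes, and 0.77 for MFA2 (0.18 to 1.37) and 0.75 for MFA1 (0.03 to 1.48), numbers 3 and 4 from the highest. Without slide 20 or 22 these differences were -0.62, 0.12 and -0.09, and without slide 19 or 21 they were -2.58, 1.43 and 1.60. With 3 slides they cannot be told apart from a difference in channel ratio between the strains. With limma no gene passed this test (0%), members included, and 395 genes (12.6%) had an unadjusted p under 0.05, among them MF(ALPHA)2, MFA1, MFA2 and FAR1 (-0.42, interval -0.77 to -0.07). The adjusted p was 0.267 for MF(ALPHA)2, 0.345 for MFA2, 0.362 for FAR1 and 0.420 for MFA1, so a difference was not established for any member. For AGA1 the difference was -0.09 with an interval from -0.40 to 0.23, and for MF(ALPHA)1 0.16 with an interval from -0.13 to 0.46. The residual spread of this test is the difference in channel ratio between the strains, which was large for most type-specific members (-0.85 for MFA1 and 1.19 for STE3), and so their SE was large as well. In the faible columns alone MFA1 (limma adjusted p = 0.000197), MFA2 (0.000228) and MF(ALPHA)2 (2.69e-25) passed among 73 of 3127 genes. With the values as deposited the same 3 members passed among 15 genes. In both settings the p-values of the members followed the size of the difference alone. The residual spread of each gene was thus left out there, and these calls do not establish a difference either. The fit has 1 residual degree of freedom.

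The other genes of mating and the pheromone response were read from lists of 78 further genes, of which 39 had a feature of their own. None of the 39 passed for yap1d in either strain, over both strains or between strains. For the difference in channel ratio between strains none passed either. Their median effect was -0.01, and 20 of 39 were below 0, close to the 54.4% of all genes. STE2, BAR1 and ASG7, the remaining a-specific genes of the lists, had no value here.

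In the making and sensing of pheromone, the farnesyltransferase subunits RAM1 (-0.08) and RAM2 (0.09), which attach the lipid to a-factor, and the protease STE24 (0.04), which trims it, had means near 0. So did the proteases that cut alpha-factor from its precursor, KEX2 (-0.05), KEX1 (0.09) and STE13 (0.02). The G protein subunits GPA1 (alpha, -0.21) and STE4 (beta, -0.12) were below 0 in both strains without passing. Of 7 further measured genes of the MAP kinase cascade, KSS1, the kinase shared with filamentous growth, had the lowest mean (-0.26, limma adjusted p = 0.228), the GTPase CDC42 was at -0.14 and the scaffold BEM1 at -0.10. FUS3, the kinase that acts on Far1, was at -0.02.

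**Figure D4:**
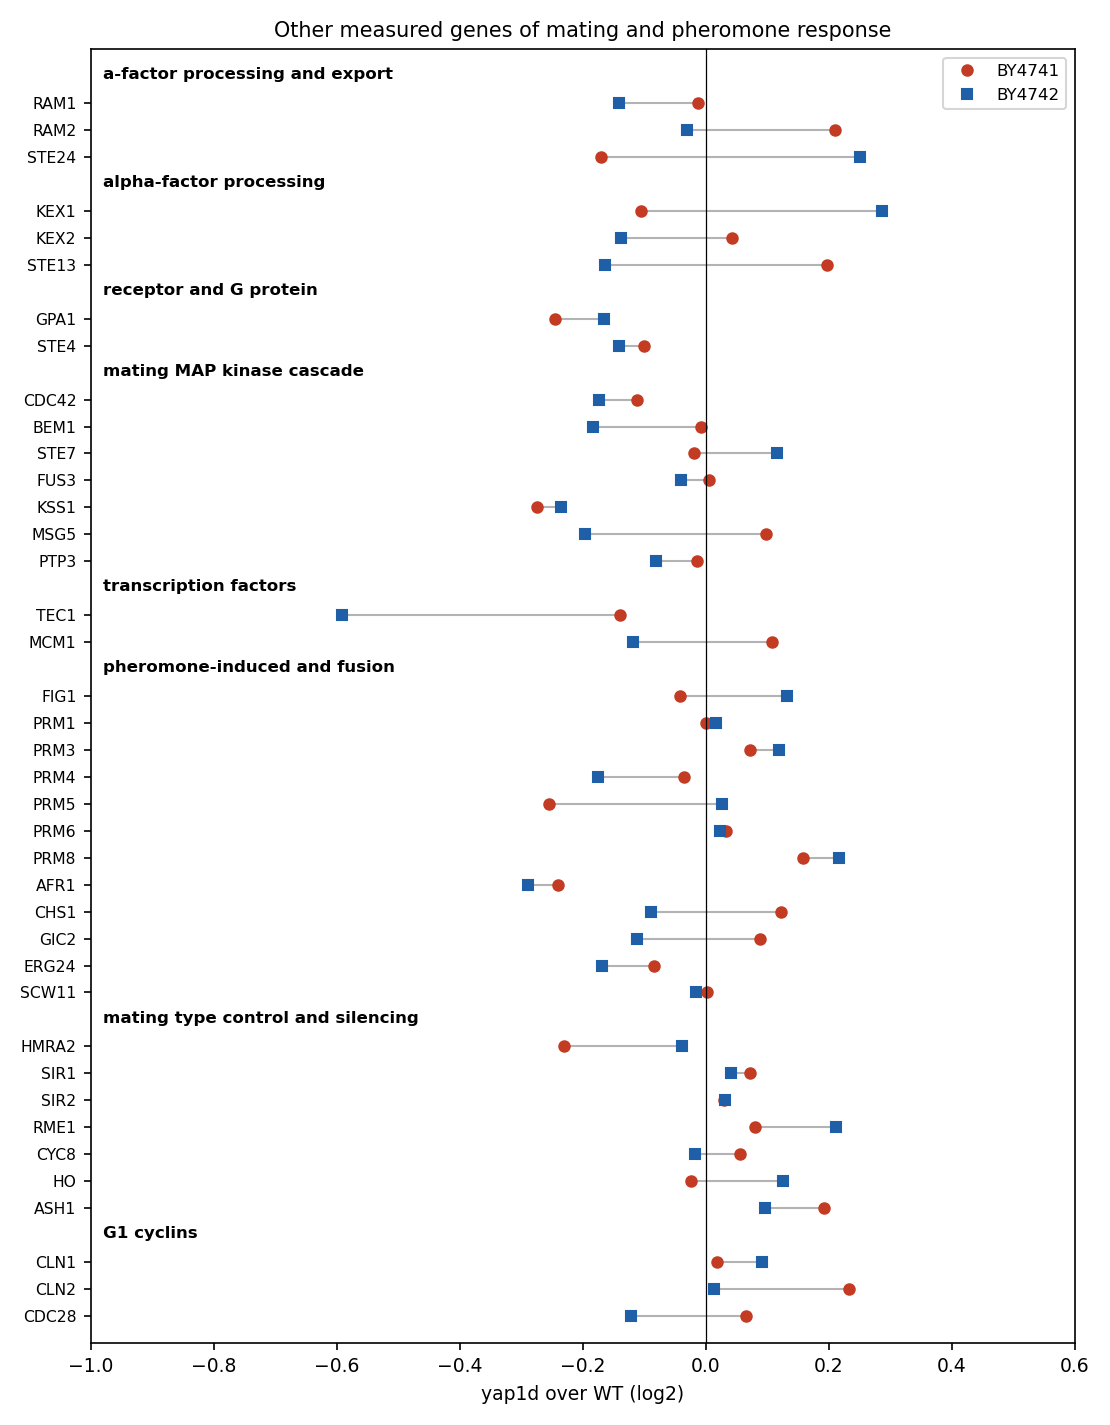
Effect of yap1d (log2 of yap1d over WT) in BY4741 (red circles) and BY4742 (blue squares) for the 39 other measured genes, grouped by role. Values lie between -0.59 (TEC1 in BY4742) and 0.29 (KEX1 in BY4742).

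Downstream, TEC1, the partner of Ste12 in filamentous growth, was at -0.14 in BY4741 and -0.59 in BY4742 (mean -0.37, limma adjusted p = 0.311), and MCM1, which helps to set both mating types' genes, was at -0.01. Of 12 pheromone-induced and fusion genes other than AGA1, AFR1, which acts in receptor signalling and in shaping the mating projection, had the lowest mean (-0.26, limma adjusted p = 0.203), PRM8 the highest (0.19) and ERG24, of sterol synthesis, -0.13. FIG1 (0.04), PRM1 (0.01), PRM3 (0.10) and PRM6 (0.03), which pheromone induces, were near 0. Among 7 genes of mating type control, RME1 (0.15), ASH1 (0.14) and HMRA2 (-0.13) had the largest means, and the silencing genes SIR1 (0.06) and SIR2 (0.03) and the endonuclease gene HO (0.05) were near 0. The G1 cyclins that Far1 opposes were at 0.05 for CLN1 and 0.12 for CLN2, and the kinase CDC28 at -0.03.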

How the data were processed

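Per the labels, RNA was extracted with a column kit, given an indirect label and hybridised on a yeast array. The values are log ratios, taken as log2, as deposited by the authors in 8 columns without missing values. No source used here gives the base, the top channel, the background correction or the normalization. All 8 columns map to samples of the series. Genes were named by the annotation of the array, updated by gene identifier to the R64 yeast table (3343 of 3344 features with 1 symbol matched, 387 had several symbols and 3181 none). Positions are left out, as the array names no build.

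Columns were centred on their medians (-0.28 to 0.04 before), scans averaged per slide and features averaged per gene, leaving 6695 units, 3568 of them without a single gene name. The 4 slides were fitted with lmFit and eBayes (limma 3.58.1, R 4.3.3), two-sided, with Benjamini-Hochberg adjustment over all units and a threshold of 0.05. The fits held a channel term and 1 yap1d effect (2 residual degrees of freedom), a yap1d effect per strain (1), or a channel ratio per strain (1). The fits were also run on simulated slides whose variances were drawn from the fit of the mean effect. Only the sign of calls and the mean error had a required limit, not false calls or recovery. The fit of channel ratios gave all genes 1 common SD instead, so the simulation does not check the calls of members. No member read exactly 0 in any column. The members and lists, and the named genes (all members, list members past the threshold or with the 3 largest means, others for their role, and the 3 nearest genes), were chosen with earlier results of these data known. Alternatives varied scan, centring, scaling, filters, terms, moderation and slides. Figures used matplotlib 3.10.9. Array probes, promoters and proteins were not analysed here.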

Additional observations from a re-analysis of the deposited data

Results flagged for a closer look

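The channel ratio of STE3 differed between BY4742 and BY4741 by 1.19, and that of MF(ALPHA)2 by 0.98, each past the limma test of the difference. STE6 (-0.76) was above 0 on both BY4741 slides and below 0 on both BY4742 slides, and SAG1 (0.73) was below 0 on both BY4741 slides and above 0 on both BY4742 slides. The differences of STE6 and SAG1 did not pass the limma test.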

How the results depend on the processing

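With 4 slides, the channel ratio lay higher in the strain of the gene's own mating type for 7 or 8 of the 8 type-specific members in all settings that gave it, by at least 0.5 for 6 or 7, against 0.48% to 3.36% of all genes. Without slide 20 or slide 22 it did so for 5, by at least 0.5 for 2, against 5.66% of all genes, and without slide 19 or 21 for 7, against 10.2%. With 3 slides, a difference between strains in channel ratio and one in the effect of yap1d cannot be told apart, and MF(ALPHA)2 then had -0.62 in channel ratio without slide 20 or 22 and 2.58 without slide 19 or 21. The count of genes for the mean effect was 3 to 95 without 1 slide, 26 after scaling, 17 after quantile normalization, 0 without a channel term (26 with an unadjusted p under 0.05) and 1822 with columns taken as already turned. In BY4741 the count was 12 in the fort and 177 in the faible columns, 91 as deposited, 12 scaled, 19 quantile normalized and 1250 as already turned. In BY4742 it was 9, 138, 114, 18, 27 and 1010. Between strains it was 73 in the faible columns, 15 as deposited, and 1 with features at 0 left out or each feature on its own. For the difference in channel ratio between strains it was 0 scaled, 0 quantile normalized and 8 with print block medians removed. Of the called genes, 37 were lower and 11 higher for the mean (28 and 18 as deposited, 15 and 2 quantile normalized), 29 and 12 in BY4741 (41 and 50 as deposited, 10 and 2 scaled, 16 and 3 quantile normalized) and 39 and 6 in BY4742 (42 and 72 as deposited). With columns taken as already turned, AGA2 (-0.61), MF(ALPHA)2 (0.60), SAG1 (0.59) and FAR1 (0.31) reversed in BY4742. The cause of these changes was not tested, apart from the tie between the terms with 3 slides. The promoter motif search was not run, as no promoter sequence was used here. No replicate number joins slides across strains, so they were set side by side only by orientation (20 with 22, 19 with 21), without a paired test. Each ratio already pairs yap1d with WT on its slide, and the channel term holds the orientation.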
